A study of Mus musculus with 13 samples.

Results

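Interferon-stimulated genes are the genes that cells switch on after an interferon binds its receptor. The 39 described here are a fixed list of such genes in the mouse, 39 of 55357 genes in the count table, in tail tissue with lymphedema, a swelling from failed lymphatic drainage. The list holds 27 genes usually described as targets of type I interferon and 12 usually described as targets of interferon-gamma. All 39 were in the table and all 39 passed the filter on low counts. The 6 TNTProx1 libraries and the 7 TNTSham libraries came from tails of mice aged 12 weeks, sampled 28 days after TNT. TNT is read here as tissue nanotransfection, in which an electric field carries nucleic acids into skin cells, and TNTSham is the sham group. Prox1, for which the TNTProx1 group is named, encodes a transcription factor of lymphatic endothelial cells. Strain, sex, the delivered construct and the number of animals are not stated in the labels used here, so p-values measure the spread between these samples, which may be partly technical.

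Type I interferons bind the IFNAR1 and IFNAR2 chains, and the kinases JAK1 and TYK2 then activate a complex of STAT proteins with IRF9 that binds interferon-stimulated response elements in promoters. Interferon-gamma binds IFNGR1 and IFNGR2, and STAT dimers then bind gamma-activated sites and induce IRF1, guanylate-binding proteins and the antigen processing genes. Most targets answer to both kinds of interferon to some degree, so the division of the list is one of emphasis. In skin, keratinocytes, fibroblasts, endothelial cells and immune cells can all carry these transcripts, and the products restrict viruses and intracellular bacteria and raise antigen presentation.

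The promoters of the members show how close the letters of these elements lie to the start of transcription. RefSeq (mouse build GRCm38.p6, an older build than that of the counts) held 33 promoter windows of 300 bases for 29 of the 39 members. The letters GAAANNGAAA, a pair of GAAA half-sites that form the core of an interferon-stimulated response element, were in 18 of the 33 windows on either strand (54.5%), against 1131 of 32851 windows of all genes (3.44%). The letters TTCNNNGAA of a gamma-activated site were in 10 of the 33 (30.3%), against 2726 of all windows (8.3%). Of the 21 windows of type I members, 12 held the first motif (57.1%) and 5 the second (23.8%). Of the 12 windows of interferon-gamma members, 6 held the first and 5 the second (41.7%). The 150 bases before the start are shown for 5 members, 4 of which are described below and Irf1 as a member with the gamma-activated letters alone. Each reads 5′ to 3′ on the gene's strand and capitals mark the matches. Isg15 has 3 overlapping matches to GAAANNGAAA, Bst2 has 2 that overlap each other and a TTCNNNGAA match, Irgm1 has 2 that overlap, Gbp2 has 1 on the opposite strand, and Irf1 has 1 match to TTCNNNGAA. Another RefSeq window of Irf1, not shown, held neither motif. A match is a description of the letters and not of binding.
Isg15, chr4:156200819-156200968, minus strand: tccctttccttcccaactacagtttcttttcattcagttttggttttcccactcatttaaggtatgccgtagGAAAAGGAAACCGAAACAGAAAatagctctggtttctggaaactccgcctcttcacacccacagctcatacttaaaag
Bst2, chr8:71537473-71537622, minus strand: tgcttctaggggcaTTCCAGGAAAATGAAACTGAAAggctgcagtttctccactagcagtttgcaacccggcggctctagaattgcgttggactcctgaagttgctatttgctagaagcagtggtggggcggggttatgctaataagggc
Irgm1, chr11:48871421-48871570, minus strand: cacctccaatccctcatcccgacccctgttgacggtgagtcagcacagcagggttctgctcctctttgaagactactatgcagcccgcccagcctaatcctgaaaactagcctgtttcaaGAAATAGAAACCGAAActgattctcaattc
Gbp2, chr3:142620513-142620662, plus strand: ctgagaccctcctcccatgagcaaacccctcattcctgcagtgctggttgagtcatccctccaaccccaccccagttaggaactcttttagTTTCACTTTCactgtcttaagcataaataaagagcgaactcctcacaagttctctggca
Irf1, chr11:53769864-53770013, plus strand: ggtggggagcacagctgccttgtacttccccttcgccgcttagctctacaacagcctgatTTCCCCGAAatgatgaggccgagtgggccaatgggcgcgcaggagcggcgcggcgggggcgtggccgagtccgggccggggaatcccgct

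The 39 genes stood slightly higher in TNTProx1 as a list, but none of them passed the test, and without 1 library the list stood at the TNTSham level. In TNTProx1 2 all 39 members lay above the TNTSham mean, and for 33 of them it was the highest of the 13 libraries. By the median difference of the members from the TNTSham mean, TNTProx1 1, 3, 4 and 5 lay within the span of the TNTSham libraries. TNTProx1 6 lay at -0.31, level with the lowest TNTSham library. The median log2 fold change of the members (TNTProx1 over TNTSham) was 0.23, with 34 of 39 above 0, against -0.02 over all 22876 genes tested, of which 47.7% were above 0. Without TNTProx1 2 the members' median was -0.01 and 17 of 39 were above 0, against 47.7% of all genes. At an unadjusted p under 0.05, edgeR then had Bst2 and Ifitm3 higher and Mx1 lower, against 9.04% of all genes higher and 4.61% lower, and 0 members and 0.0% of genes passed adjustment. No member had a TNTProx1 range wholly above or wholly below that of TNTSham, and of all genes tested 91 (0.398%) lay wholly above and 49 (0.214%) wholly below, so a count of 0 among 39 is at the background.

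The edgeR quasi-likelihood test called 0 of the 39 members and 0 of 22876 genes (0.0%) at a Benjamini-Hochberg adjusted p under 0.05. The lowest adjusted p of a member was 0.181, for Bst2. At an unadjusted p under 0.05, 5 members were higher in TNTProx1 (12.8% of 39) and 0 were lower, against 8.33% and 3.92% of all genes. The 5 were Bst2, Ifitm3 and Irf7 of the type I group and Gbp2 and Irgm1 of the interferon-gamma group. DESeq2 gave 3 members higher at that level, against 4.87% of 41739 genes higher and 3.59% lower. The low-count filter was not applied in DESeq2, so its shares include barely counted genes and are not a like background for the members. With limma voom 2 members were higher, against 9.49% of all genes higher and 10.2% lower. Both called 0 members after adjustment, while DESeq2 called 552 genes (1.32% of 41739) and limma voom 573 (2.5% of 22876). The count of 5 depended on single libraries. It was 1 without TNTSham 2 or without TNTSham 7, 2 without TNTSham 4, TNTProx1 2, TNTProx1 4 or TNTProx1 5, and 3 without TNTSham 3. Without TNTSham 6 or TNTProx1 1 it was 4. It rose to 7 without TNTSham 1, TNTSham 5, TNTProx1 3 or TNTProx1 6.

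**Figure D1:**
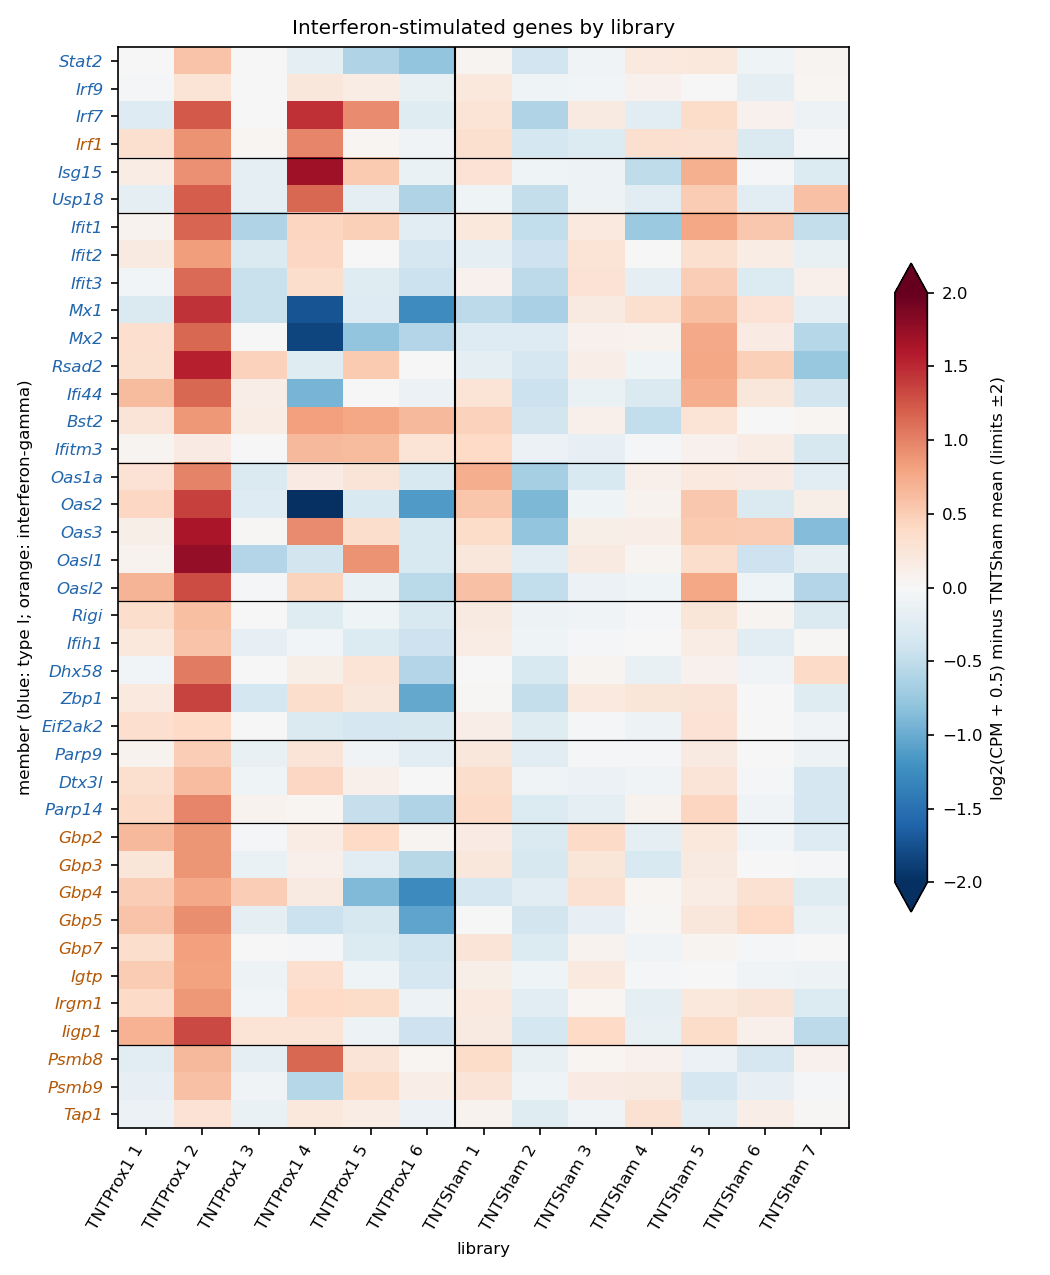
Difference of each member's log2(CPM + 0.5) from the TNTSham mean, with the 39 members in rows grouped by role and the 13 libraries in columns, TNTProx1 on the left. TNTProx1 2 is above the TNTSham mean for all 39 members, and TNTProx1 6 is the lowest of the 13 libraries for 12.

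Total counts were 34970304 to 48007392 per TNTProx1 library and 29691929 to 47868919 per TNTSham library. Keratin and collagen genes were counted in every library, as were skeletal muscle markers, so the counts do not show skin alone. Prox1 stood at 42.8, 72.9, 29.6, 18.7, 28.5 and 32.6 CPM (counts scaled by TMM to library size) in TNTProx1 1 to 6, against 23.4 to 33.1 CPM in TNTSham, so TNTProx1 1 and 2 lay above the TNTSham range and TNTProx1 4 below it. As a set, TNTProx1 4 to 6 differed from the other 10 libraries in composition, with 0.136 to 0.193% of counts on provisional TEC gene models, against 0.565 to 0.745% in TNTProx1 1 to 3 and 0.378 to 0.701% in TNTSham. Malat1, a nuclear RNA, stood at 3410 to 3539 CPM in them, at 12670 to 16600 CPM in TNTProx1 1 to 3 and at 8979 to 16810 CPM in TNTSham. No TNTSham library shares that composition, so it and the group cannot be told apart in TNTProx1 4 to 6. Without them, TNTProx1 1 to 3 against TNTSham left all 39 members above 0 (49.8% of all genes), with a median log2 fold change of 0.44. Of the 39, 11 were then higher at an unadjusted p under 0.05 in edgeR and 0 passed adjustment, against 9.34% of all genes higher, 12.1% lower and 0.0% past adjustment. These were Rsad2, Ifi44, Rigi, Parp14, Gbp2, Gbp4, Gbp5, Gbp7, Igtp, Irgm1 and Iigp1. TNTProx1 2 is 1 of the 3 libraries left in that comparison.

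The members differed far more from library to library in TNTProx1 than in TNTSham. The coefficient of variation had a median over members of 41.6% among TNTProx1 libraries, against 19.2% among TNTSham libraries, and was larger in TNTProx1 for 37 of 39. Over all genes tested the medians were 31.9% in TNTProx1 and 19.0% in TNTSham, and it was larger in TNTProx1 for 83.7%. For type I members the medians were 46.9% in TNTProx1 and 24.3% in TNTSham, and for interferon-gamma members 34.1% in TNTProx1 and 16.5% in TNTSham. At least 1 TNTProx1 library lay above the TNTSham range for 38 members, and at least 1 lay below it for 19. Such libraries were not counted over all genes tested, so these counts do not set the members apart. Tap1 was the only member of the 39 with every TNTProx1 library inside the TNTSham range.

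Library by library, the median difference of the members from the TNTSham mean was 0.90 in TNTProx1 2 on the log2(CPM + 0.5) scale. It was 0.25 in TNTProx1 1, 0.205 in TNTProx1 4, -0.005 in TNTProx1 5, -0.05 in TNTProx1 3 and -0.31 in TNTProx1 6. The TNTSham libraries spanned -0.31 in TNTSham 2 to 0.26 in TNTSham 5. TNTProx1 2 was therefore the one library above the TNTSham span of this median. TNTProx1 1, 3, 4 and 5 were within it, and TNTProx1 6 was level with its low end. Relative to the TNTSham median, CPM in TNTProx1 2 had a median ratio of 1.94 over members, from 1.14 to 4.19, and the ratio was at least 1.5 for 32 of 39 and at least 2 for 17. The ratio was not taken over all genes tested. The 39 members together took 0.135% of the counts of TNTProx1 2, against 0.0521 to 0.135% over all TNTProx1 libraries and 0.0592 to 0.0816% over TNTSham libraries. TNTProx1 2 was the highest of the 13 for 84.6% of members and for 12.9% of all tested genes.

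**Figure D2:**
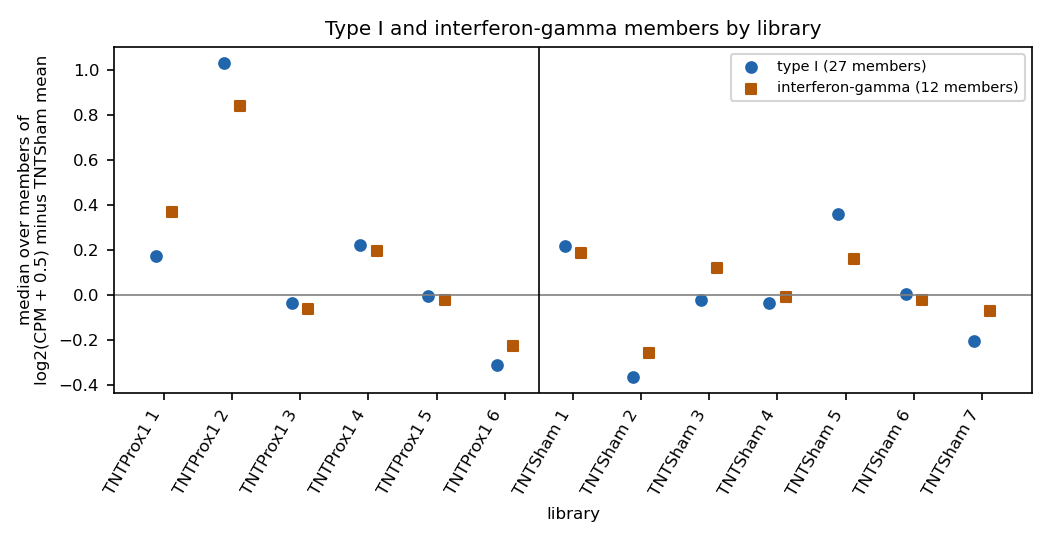
Median difference of type I and interferon-gamma members from the TNTSham mean in each library, in log2(CPM + 0.5), with circles for type I and squares for interferon-gamma. Both groups of genes are highest in TNTProx1 2, at 1.03 for type I and 0.84 for interferon-gamma members.

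The medians of type I and interferon-gamma members lay on the same side of the TNTSham mean in 11 of 13 libraries, and neither separated TNTProx1 from TNTSham. The median log2 fold change was 0.23 for the 27 type I members, from -0.11 to 0.76, and 0.19 for the 12 interferon-gamma members, from 0.05 to 0.42. Of the type I members 22 were above 0, and of the interferon-gamma members 12. Without TNTProx1 2 these medians were -0.015 for type I, with 11 of 27 above 0, and 0.05 for interferon-gamma, with 6 of 12 above 0. In TNTProx1 2 the type I members stood at a median of 1.03 above the TNTSham mean and the interferon-gamma members at 0.84. In TNTProx1 1 the order was the other way, 0.17 for type I and 0.37 for interferon-gamma. TNTProx1 6 had -0.31 for type I and -0.23 for interferon-gamma. Among the 11 members higher at an unadjusted p under 0.05 without TNTProx1 4 to 6, 4 of 27 were type I and 7 of 12 interferon-gamma. The difference between the gene groups was not tested, because members of a group share their libraries and their inducers.

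Transcription factors of the response had a median log2 fold change of 0.25. Irf7 (ENSMUSG00000025498.16, chromosome 7), which drives the later wave of type I interferon production, had 7.17, 12.9 and 24.6 CPM as the lowest, median and highest of 6 TNTProx1 libraries, against 5.55, 9.17 and 11.3 CPM in 7 TNTSham libraries, and 3 values per group are given in that order for the members that follow. TNTProx1 2, 4 and 5 lay above the TNTSham range, at 20.9, 24.6 and 17.2 CPM, and the other 3 lay inside it. Irf7 had a log2 fold change of 0.69 ± 0.30 (SE; edgeR unadjusted p = 0.0343, adjusted p = 0.362), and 0.55 without TNTProx1 2. Without TNTProx1 4 to 6 it was 0.47 (edgeR unadjusted p = 0.144). Stat2, a subunit of the complex with IRF9, had 19.3, 31.5 and 50.03 CPM in TNTProx1, against 25.5, 34.9 and 39.1 CPM in TNTSham. TNTProx1 2 lay above the TNTSham range and TNTProx1 5 and 6 below it, so the fold change was close to 0, at -0.11 ± 0.19 (edgeR adjusted p = 0.837). Irf1, a factor that interferon-gamma induces, had a log2 fold change of 0.41, and Irf9 one of 0.08. Irf1 was highest in TNTProx1 4, at 44.1 CPM, and next in TNTProx1 2, at 42.2 CPM, above the 27.9 CPM of the highest TNTSham library.

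The ISG15 pathway had the highest median of the 8 roles, 0.57 over 2 genes. Isg15, a ubiquitin-like protein that is attached to other proteins, had 1.23, 2.04 and 5.92 CPM in TNTProx1, against 0.905, 1.38 and 2.76 CPM in TNTSham. TNTProx1 4 and TNTProx1 2, at 5.92 and 3.27 CPM, lay above the TNTSham range. Its log2 fold change was 0.76 ± 0.38 (edgeR adjusted p = 0.445), and 0.34 without TNTProx1 4, below the 0.56 of Bst2 in the same fit. Usp18, the protease that removes ISG15 and dampens signalling at the type I receptor, had 1.69, 2.41 and 7.25 CPM in TNTProx1, against 1.91, 2.60 and 4.52 CPM in TNTSham. The TNTProx1 median was thus below that of TNTSham while TNTProx1 2 and TNTProx1 4, at 7.25 and 6.91 CPM, lay above its range. For Usp18 the log2 fold change was 0.38 ± 0.36 (edgeR adjusted p = 0.705), 0.10 without TNTProx1 2 and 0.13 without TNTProx1 4.

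Among the 9 antiviral effectors, with a median log2 fold change of 0.25, Bst2 and Ifitm3 had an unadjusted p under 0.05 with and without TNTProx1 2. Bst2 (ENSMUSG00000046718.9, chromosome 8) encodes tetherin, which holds budding virus on the cell surface. It had 7.32, 11.1 and 12.4 CPM in TNTProx1, against 4.53, 6.75 and 9.26 CPM in TNTSham, or 10.3 ± 2.16 CPM (SD, n = 6) and 6.75 ± 1.64 CPM (SD, n = 7) on average. TNTProx1 2, 4, 5 and 6 lay above the TNTSham range, and TNTProx1 1 and 3 lay inside it. Its log2 fold change was 0.61 ± 0.19 (edgeR unadjusted p = 0.00525, adjusted p = 0.181), and 0.55 ± 0.20 without TNTProx1 2 (edgeR unadjusted p = 0.0137). Without TNTProx1 4 to 6 it was 0.45 and missed that level (edgeR unadjusted p = 0.071). Ifitm3 (ENSMUSG00000025492.7, chromosome 7), a membrane protein that blocks virus entry, had 78.2, 91.7 and 124 CPM in TNTProx1, against 63.1, 76.9 and 103.5 CPM in TNTSham. Only TNTProx1 4 and 5 lay above the TNTSham range, and TNTProx1 2 stood at 87.8 CPM, inside it. For Ifitm3 the log2 fold change was 0.30 ± 0.14 (edgeR unadjusted p = 0.0449, adjusted p = 0.396), 0.33 without TNTProx1 2 and 0.05 without TNTProx1 4 to 6.

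The other effectors followed TNTProx1 2. Ifit1, Ifit2 and Ifit3, which bind viral RNA, had log2 fold changes of 0.25, 0.17 and 0.14, and Ifit3 stood at 24.9 CPM in TNTProx1 2, against 15.8 CPM in the highest TNTSham library. Rsad2, which encodes viperin, stood at 17.6 CPM in TNTProx1 2, above the 10.02 CPM of the highest TNTSham library, and its log2 fold change was 0.52, and 0.18 without TNTProx1 2. Mx1, a GTPase that acts on influenza virus in the nucleus of mouse cells, spread to both sides. It stood at 17.2 CPM in TNTProx1 2 and at 1.46 and 2.21 CPM in TNTProx1 4 and 6, against 3.62 to 9.30 CPM in TNTSham, with a log2 fold change of -0.11. Mx2, annotated as a polymorphic pseudogene, likewise stood at 4.94 CPM in TNTProx1 2 and 0.180 CPM in TNTProx1 4, against 1.15 to 3.63 CPM in TNTSham. Ifi44 had a log2 fold change of 0.28.

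**Figure D3:**
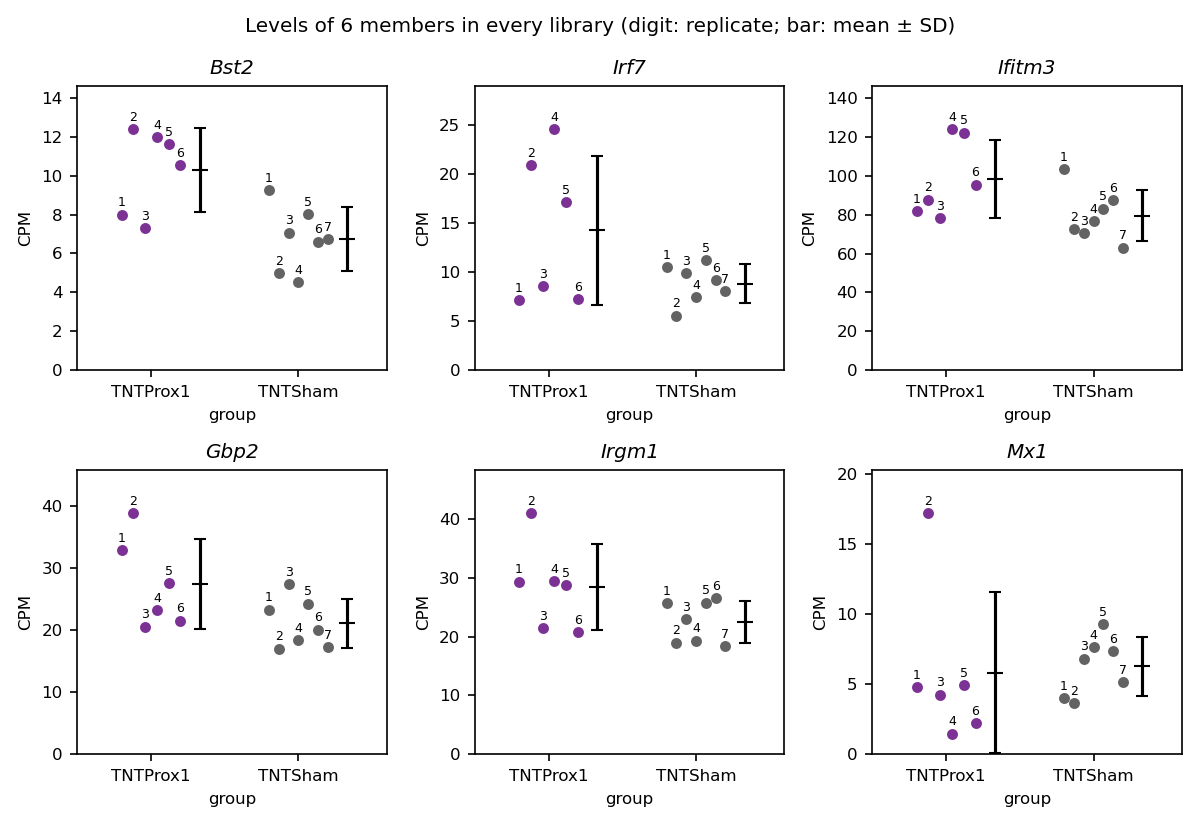
CPM of 6 members in each library, TNTProx1 left of TNTSham, with the group mean and SD. TNTProx1 2 is the highest point for Mx1 at 17.2 CPM, while TNTProx1 4 is the highest for Irf7 at 24.6 CPM, and the groups overlap in every panel.

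TNTProx1 4 had members at both ends. It was the highest of the 13 libraries for Irf7, Irf1, Isg15, Ifitm3 and Psmb8 and the lowest of the 13 for Mx1, Mx2, Ifi44, Oas2 and Psmb9. Over all tested genes it was the highest for 16.2% and the lowest for 27.3%, so neither share of the members, 12.8% each, exceeded that of all genes. TNTProx1 6 was the lowest for 12 members (30.8%), among them Stat2, Usp18, Zbp1, Parp14 and Gbp3, against 9.5% of all tested genes. When TNTProx1 4 to 6 alone were set against TNTSham, 7 members passed the edgeR test at an adjusted p under 0.05, against 29.6% of all genes tested (14.6% higher and 15.0% lower). Ifitm3, Irf7 and Bst2 were higher, with log2 fold changes of 0.53, 0.89 and 0.76, and Gbp5, Stat2, Mx1 and Eif2ak2 were lower, with -0.62, -0.51, -1.12 and -0.33. The 3 higher genes had a median exon length of 903 bases and the 4 lower ones 5519.5 bases. Over all genes called in that comparison the medians were 2649.5 bases for higher and 3794 bases for lower, and the part of length in the result was not tested.

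The OAS family, enzymes that make the messenger that activates RNase L and their inactive relatives, had a median log2 fold change of 0.35. Oas3 had 1.69, 2.69 and 7.92 CPM in TNTProx1, against 0.987, 2.48 and 3.39 CPM in TNTSham, with TNTProx1 2 and TNTProx1 4 above the TNTSham range. Its log2 fold change was 0.61 ± 0.39 (edgeR adjusted p = 0.569), and 0.23 without TNTProx1 2. Oasl2 had 8.56, 14.8 and 31.8 CPM in TNTProx1, against 8.28, 11.8 and 21.9 CPM in TNTSham. Only TNTProx1 2 lay above the range, and the log2 fold change was 0.35 ± 0.30 (edgeR adjusted p = 0.680), and 0.07 without TNTProx1 2. Oas2 stood at 19.5 CPM in TNTProx1 2 and 1.08 CPM in TNTProx1 4, against 3.64 to 10.8 CPM in TNTSham. The log2 fold change was 0.23 for Oas1a, -0.02 for Oas2 and 0.65 for Oasl1. Oasl1 stood at 5.01 CPM in TNTProx1 2, against 1.59 CPM in the highest TNTSham library, and its log2 fold change was 0.04 without TNTProx1 2.

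Nucleic acid sensors were the role with the lowest median log2 fold change of the 8, at 0.08. Zbp1, a sensor of Z-form nucleic acid that can trigger necroptosis, had 2.49, 6.55 and 15.0 CPM in TNTProx1, against 3.87, 5.70 and 6.78 CPM in TNTSham. TNTProx1 2 at 15.0 CPM and TNTProx1 4 at 7.28 CPM lay above the TNTSham range and TNTProx1 6 below it. Its log2 fold change was 0.31 ± 0.31 (edgeR adjusted p = 0.724), and -0.06 without TNTProx1 2. Eif2ak2, the kinase PKR, which halts translation on double-stranded RNA, had 31.9, 36.5 and 53.6 CPM in TNTProx1, against 34.2, 39.9 and 49.7 CPM in TNTSham. TNTProx1 1 and 2 lay above the TNTSham range and TNTProx1 4, 5 and 6 below it, and the log2 fold change was -0.02 ± 0.14 (edgeR adjusted p = 0.972). Rigi, Ifih1 and Dhx58, the RNA helicases of the RIG-I family, had log2 fold changes of 0.08, 0.01 and 0.22.

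Parp9 and Dtx3l, which form an ADP-ribosylating ubiquitin ligase, and Parp14, an ADP-ribosyltransferase, lie beside each other on chromosome 16. Dtx3l had 36.0, 44.5 and 59.0 CPM in TNTProx1, against 30.4, 36.7 and 49.1 CPM in TNTSham. TNTProx1 2 and TNTProx1 4 lay above the range, and the log2 fold change was 0.23 ± 0.14 (edgeR adjusted p = 0.523), and 0.14 without TNTProx1 2. Parp14 had 40.1, 63.7 and 120.5 CPM in TNTProx1, against 48.4, 58.5 and 82.2 CPM in TNTSham. TNTProx1 2 lay above and TNTProx1 5 and 6 below the TNTSham range, with a log2 fold change of 0.14 ± 0.23 (edgeR adjusted p = 0.828), and -0.10 without TNTProx1 2. Parp9 had a log2 fold change of 0.08.

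The interferon-inducible GTPases, which attack the vacuoles of intracellular pathogens, had a median log2 fold change of 0.19. Gbp2 (ENSMUSG00000028270.13, chromosome 3), a guanylate-binding protein, had 20.5, 25.3 and 38.8 CPM in TNTProx1, against 17.0, 20.0 and 27.3 CPM in TNTSham. TNTProx1 1, 2 and 5 lay above the TNTSham range, at 32.9, 38.8 and 27.5 CPM, the last of them by a small margin. Gbp2 had a log2 fold change of 0.38 ± 0.17 (edgeR unadjusted p = 0.0379, adjusted p = 0.376), and 0.25 without TNTProx1 2. Irgm1 (ENSMUSG00000046879.8, chromosome 11), a regulator of the immunity-related GTPases, had 20.8, 29.1 and 41.0 CPM in TNTProx1, against 18.4, 23.0 and 26.6 CPM in TNTSham. TNTProx1 1, 2, 4 and 5 lay above the TNTSham range, and the log2 fold change was 0.34 ± 0.16 (edgeR unadjusted p = 0.0489, adjusted p = 0.405), and 0.20 without TNTProx1 2. Iigp1, an effector GTPase of the same family, had 22.8, 37.1 and 76.9 CPM in TNTProx1, against 21.1, 32.9 and 40.4 CPM in TNTSham. TNTProx1 2 and TNTProx1 1, at 76.9 and 49.7 CPM, lay above the range, and the log2 fold change was 0.42 ± 0.25 (edgeR adjusted p = 0.527), and 0.16 without TNTProx1 2. The log2 fold changes of Gbp3, Gbp4, Gbp5, Gbp7 and Igtp lay between 0.05 and 0.25.

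Antigen processing genes differed little, with a median log2 fold change of 0.09 over 3 genes. Psmb8, an immunoproteasome subunit, had 12.1, 15.7 and 31.9 CPM in TNTProx1, against 11.1, 14.5 and 18.4 CPM in TNTSham. TNTProx1 4 at 31.9 CPM and TNTProx1 2 at 22.4 CPM lay above the TNTSham range, and the log2 fold change was 0.37 ± 0.21 (edgeR adjusted p = 0.522), and 0.14 without TNTProx1 4. Tap1, a subunit of the transporter that carries peptides into the endoplasmic reticulum, had 23.2, 25.9 and 31.4 CPM in TNTProx1, against 21.4, 25.8 and 31.4 CPM in TNTSham. All 6 TNTProx1 libraries lay inside the TNTSham range, and the log2 fold change was 0.05 ± 0.11 (edgeR adjusted p = 0.886). Psmb9 had a log2 fold change of 0.09.

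**Figure D4:**
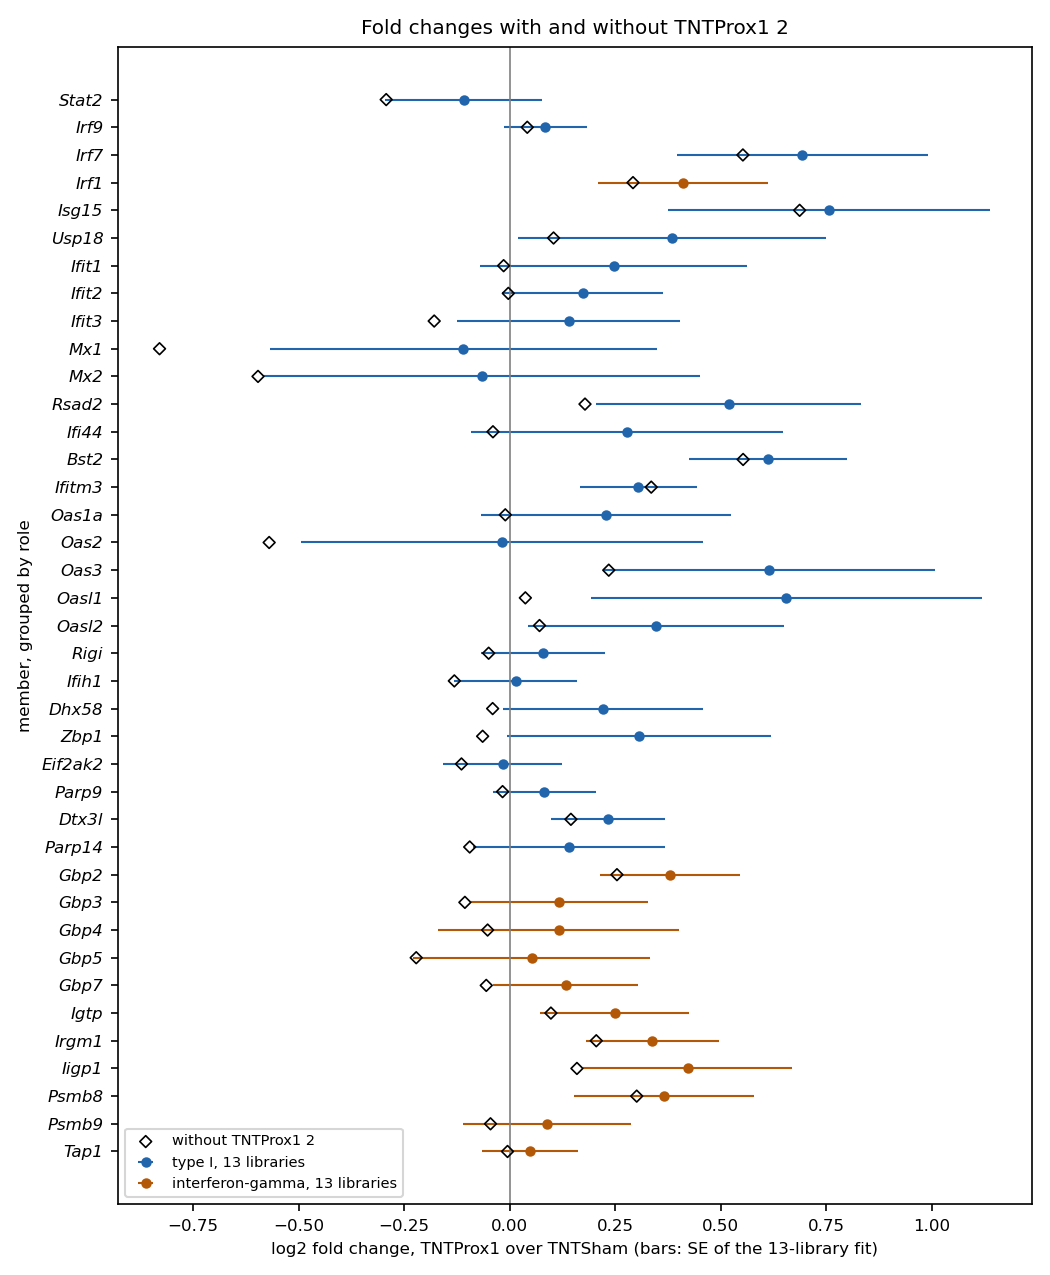
Log2 fold change (TNTProx1 over TNTSham) of the 39 members from edgeR, as filled circles with SE bars for all 13 libraries and as open diamonds without TNTProx1 2, grouped by role. The members' median is 0.23 on all libraries and -0.01 without TNTProx1 2.

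Levels can be compared between genes only per length, here as RPKM (CPM per kilobase of exon). Ifitm3 was the most abundant member of the 39, with a mean of 145 RPKM in TNTProx1 and 117 RPKM in TNTSham. Gbp2 came next in TNTSham, with 10.9 RPKM in TNTProx1 and 8.37 RPKM in TNTSham, then Eif2ak2, with 7.89 RPKM in TNTProx1 and 7.98 RPKM in TNTSham, and Bst2, with 11.4 RPKM in TNTProx1 and 7.48 RPKM in TNTSham. The lowest was Oas3, at 0.339 RPKM in TNTSham. The median over type I members was 3.41 RPKM in TNTProx1 and 2.34 RPKM in TNTSham, and over interferon-gamma members 5.16 RPKM in TNTProx1 and 4.43 RPKM in TNTSham. Some members share sequence with close copies, and the sources used here do not say how reads that align to several places were counted. Of the 35-base stretches of Oas1a transcripts, 66.3% also occur in another gene, and of those of Ifit3 59.1%, so the values of these genes are uncertain. At least 10% were shared for 8 members.

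The interferons themselves were almost uncounted. None of 11 listed interferon genes passed the filter on low counts, and 7 of them, Ifnb1 included, had no count in any library, which allows at most 3 counts or 0.0625 to 0.101 CPM per library. Ifng, the gene of interferon-gamma, had 0 to 5 counts per TNTProx1 library, 12 in all, against 0 to 8 per TNTSham library, 13 in all. Such counts are too few to compare the groups.

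Most of the interferon receptor chains stood higher in TNTProx1, by small amounts. Of 6 chains, 5 were higher at an unadjusted p under 0.05 in edgeR and 1 was lower (8.33% and 3.92% of all genes), with 0 past adjustment, and DESeq2 and limma voom each gave 3 higher. Ifnar2, a chain of the type I receptor, had 39.4, 42.6 and 56.7 CPM in TNTProx1, against 30.8, 32.8 and 43.6 CPM in TNTSham. Its log2 fold change was 0.36 ± 0.11 (edgeR unadjusted p = 0.00549, adjusted p = 0.183), and 0.34 without TNTProx1 2. Ifnar1 was at 0.19 ± 0.08, Ifngr1 at 0.21 ± 0.09, Ifngr2 at 0.27 ± 0.13 and Il10rb, shared by the type III receptor, at 0.26 ± 0.10, as log2 fold changes with SE. Without TNTProx1 4 to 6, Ifngr2 was at 0.03 (edgeR unadjusted p = 0.802) and Ifngr1 at 0.13 (edgeR unadjusted p = 0.202), while Ifnar1, Ifnar2 and Il10rb were at 0.23, 0.28 and 0.26. Ifngr2 stood at 66.8, 73.6 and 71.8 CPM in TNTProx1 4 to 6 and at 44.0, 63.4 and 48.8 CPM in TNTProx1 1 to 3, against 46.6 to 62.2 CPM in TNTSham. Ifnlr1, the specific chain of the type III interferon receptor found on epithelia, had 5.09, 7.75 and 10.02 CPM in TNTProx1, against 8.37, 9.95 and 12.1 CPM in TNTSham, a log2 fold change of -0.37 ± 0.16 (edgeR unadjusted p = 0.0378). The count of 5 was 3 without TNTSham 2, TNTSham 4, TNTSham 7, TNTProx1 2 or TNTProx1 5, and 2 without TNTSham 3 or TNTProx1 4. Ifnlr1 missed the level without TNTSham 2, TNTSham 4, TNTSham 6, TNTProx1 2, TNTProx1 5 or TNTProx1 6.

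The kinases Jak1, Jak2 and Tyk2 had log2 fold changes of 0.07, 0.03 and 0.04. Socs1 and Socs3, inhibitors of JAK kinases, were at 0.68 ± 0.25 (edgeR unadjusted p = 0.0171) and 0.80 ± 0.28 (edgeR unadjusted p = 0.0114). Socs3 had 23.97, 42.2 and 86.9 CPM in TNTProx1, against 16.3, 24.1 and 38.3 CPM in TNTSham. Cxcl9, a chemokine of T cells that interferon-gamma induces, had 2.49, 7.07 and 18.7 CPM in TNTProx1, against 1.85, 2.69 and 8.06 CPM in TNTSham, a log2 fold change of 1.29 ± 0.46 (edgeR unadjusted p = 0.0140). Only TNTProx1 1, 2 and 4 lay above the TNTSham range, at 12.9, 8.31 and 18.7 CPM, TNTProx1 2 by a small margin. Of Cxcl9 and Cxcl10, DESeq2 had 1 higher at an unadjusted p under 0.05. With limma voom 0 were, and the log2 fold changes were 0.44 to 0.47. Over all 49 listed pathway genes that are not members, 38 were tested, 11 were higher and 1 was lower at an unadjusted p under 0.05 in edgeR (8.33% and 3.92% of all genes), and the median log2 fold change was 0.17. None passed adjustment with edgeR, DESeq2 or limma voom. At the unadjusted level DESeq2, without the low-count filter, gave 9 of 42 higher (4.87% of 41739 genes) and limma voom 8 of 38 (9.49%). Tap2, Tapbp and Myd88 were the others of the 11, with 0.30 ± 0.12, 0.33 ± 0.12 and 0.41 ± 0.15. Without TNTProx1 4 to 6 these 3 were at 0.15, 0.14 and 0.15 (edgeR unadjusted p = 0.306, 0.282 and 0.343), and 6 of the listed genes were higher and 3 lower, against 9.34% and 12.1% of all genes.

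**Figure D5:**
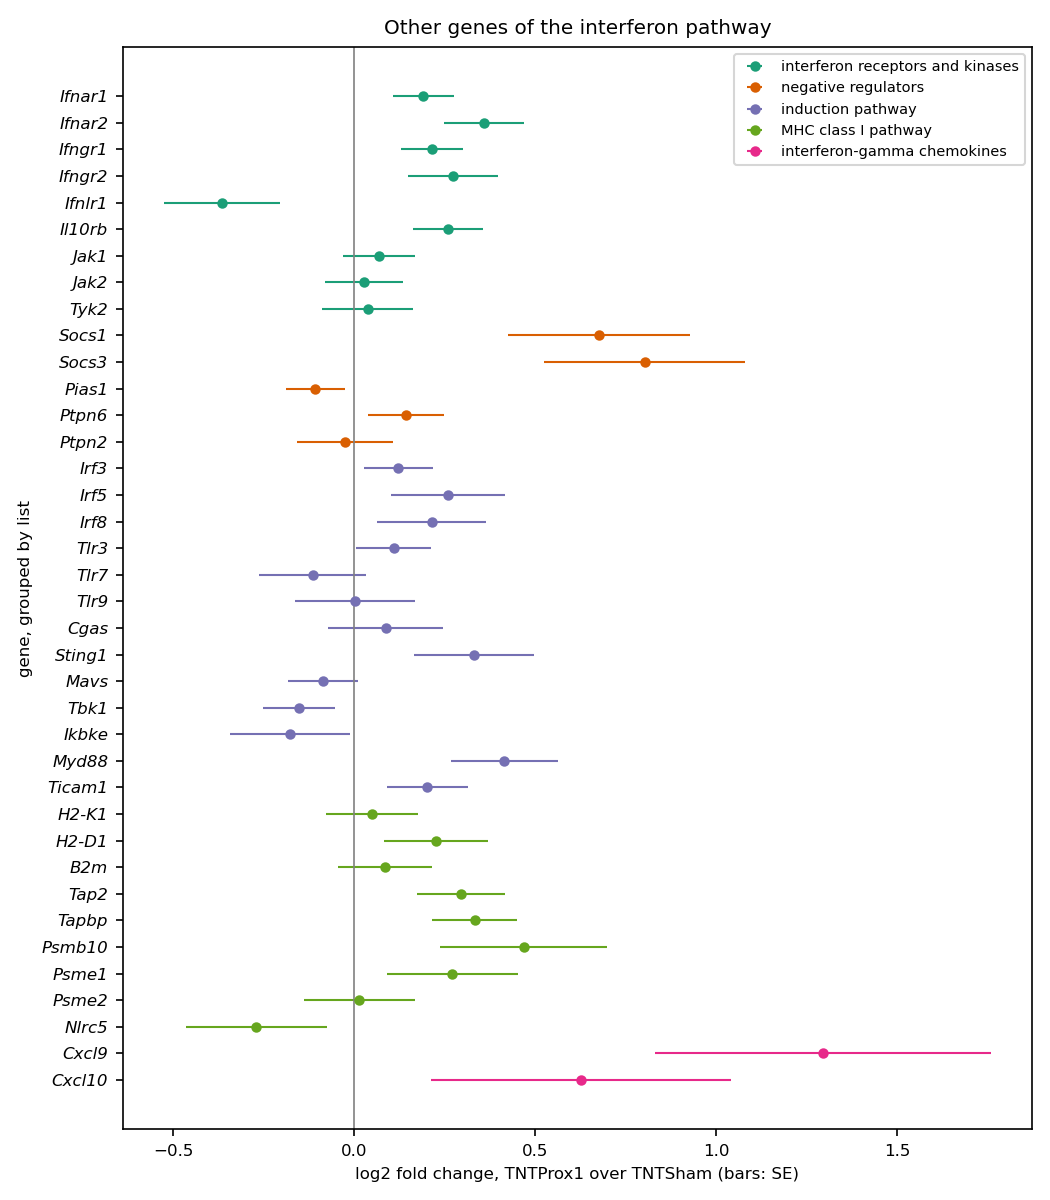
Log2 fold change (TNTProx1 over TNTSham) with SE of the tested interferon pathway genes that are not members, coloured by list. The receptor chains lie between -0.37 for Ifnlr1 and 0.36 for Ifnar2.

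The library that carried the members' signal also differed in its cell type markers, and in bulk tissue fewer cells of a type and less RNA per cell cannot be told apart. The keratinocyte markers summed to 5087 CPM in TNTProx1 2, against 16320 to 52580 CPM in the other 5 TNTProx1 libraries and 24060 to 38100 CPM in TNTSham. The 9 macrophage markers summed to 2335 CPM in TNTProx1 2, the highest of the 13, within 1545 to 2335 CPM in TNTProx1 and 1335 to 2171 CPM in TNTSham. All 9 had log2 fold changes above 0, with a median of 0.37, and 5 of them, Cd68, Csf1r, Cd14, C1qa and C1qb, were higher at an unadjusted p under 0.05 in edgeR (8.33% of all genes), or 3 of 9 without TNTProx1 2 (9.04% of all genes). All 4 endothelial markers, Pecam1, Cdh5, Kdr and Tie1, were higher at that level, with a median log2 fold change of 0.69, and 3 of 4 were without TNTProx1 2. These 4 genes do not separate blood from lymphatic endothelium. Their sum was 460 CPM in TNTProx1 2, within 405 to 604 CPM in TNTProx1 and 235 to 485 CPM in TNTSham. Skeletal muscle markers summed to 453 CPM in TNTProx1 2, the lowest of the 13, against 1010 to 1599 CPM in the other 5 TNTProx1 libraries and 1046 to 2811 CPM in TNTSham. B cell markers summed to 19.7 CPM in TNTProx1 2, the highest of the 13, against 4.18 to 18.3 CPM in TNTSham. Natural killer cell markers summed to 7.69 CPM in TNTProx1 2, against 3.43 to 7.69 CPM over TNTProx1 and 3.65 to 5.20 CPM over TNTSham. The 4 markers of plasmacytoid dendritic cells, the main source of type I interferon in blood, went both ways in TNTProx1 2. Their sum of 7.48 CPM was the lowest of the 13, against 9.01 to 14.0 CPM in TNTSham, with Ccr9 at 2.49 CPM and Cox6a2, also a muscle gene, at 1.26 CPM. Siglech, the more specific marker, stood at 3.42 CPM in TNTProx1 2, against a TNTSham median of 2.81 CPM. T cell markers stood at 15.4 to 31.2 CPM in TNTProx1 and 18.1 to 37.9 CPM in TNTSham, with TNTProx1 2 at 31.2 CPM. Fibroblast markers summed to 41660 CPM in TNTProx1 2, above the 19080 to 35080 CPM of TNTSham. TNTProx1 3 and TNTProx1 6, at 74760 and 45250 CPM, also lay above that range. Neutrophil markers summed to 112 CPM in TNTProx1 2, inside the 33.8 to 260 CPM of TNTSham. TNTProx1 2 was also the library highest in Prox1. The part of these cell types, and of Prox1, in the members' levels was not tested.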

How the data were processed

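Whole-tissue RNA was sequenced in 13 samples. The deposited table holds raw counts per gene, which the authors made, per the submitters' processing notes, with fastp 0.20.1, HISAT2 2.2.1 on build GRCm39 and featureCounts of Subread 2.0.2. The sources used here do not give the annotation release or the strand setting. Of 55357 genes, 52081 matched GENCODE M21 by identifier, which gave symbols and exon lengths only.

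Counts were scaled by TMM in edgeR 4.0.16 (R 4.3.3). The filter filterByExpr, given the group, left 22876 genes, and a quasi-likelihood F test compared TNTProx1 with TNTSham over all of them, with Benjamini-Hochberg adjustment and a threshold of 0.05. SE is the absolute log2 fold change over the root of F. CPM are TMM-scaled, and deviations use log2(CPM + 0.5). Common dispersion was 0.131. Alternatives were DESeq2 1.42.0 without filterByExpr, limma 3.58.1 voom with quality weights, other scalings and filters, and fits without single libraries or sets of them. All 39 members, chosen by name, and all lists were taken with earlier results of these data known. Full values are given for 17 members picked by role and level or by the smallest unadjusted p, and for others where a library lay far out, chosen after their values were seen. For the receptor chains and the other pathway genes the alternatives were counted after the data were seen.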

Additional observations from a re-analysis of the deposited data

Results flagged for a closer look

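Values were examined for single libraries far from the rest of their group in 82 groups of 6 or 7 values, and 4 were found. Chance marks about 1 in 20 such groups, so 4 of 82 is near that share. The groups come from the same libraries and are not independent. All 4 were TNTProx1 2. Ifit3 stood at 24.9 CPM there, with the nearest TNTProx1 library at 14.2 CPM. Mx1 stood at 17.2 CPM, with the nearest at 4.91 CPM. Rsad2 stood at 17.6 CPM, with the nearest at 8.37 CPM. Oas1a stood at 5.71 CPM, with the nearest at 3.31 CPM, and 66.3% of its transcript stretches are shared with another gene.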

How the results depend on the processing

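No paired analysis was possible because the labels number the samples singly, and the replicate numbers used here only name samples and tie none to another across groups. The median log2 fold changes of the members kept their sign under every alternative except without TNTProx1 2, where those of all members and of type I members were just below 0. Leaving out 1 library at a time gave -0.01 to 0.31 for all members, -0.015 to 0.31 for type I and 0.05 to 0.32 for interferon-gamma, and pooled SDs of the library medians were 0.31, 0.36 and 0.28. Genes past the threshold, 0 in edgeR, were 552 with DESeq2, 573 with limma voom, 1 with no filter on low counts and 7047 without TNTProx1 1 to 3, and 0 to 589 without 1 library. Members past it were 7 without TNTProx1 1 to 3 and 0 to 0 without 1 library. Members higher at an unadjusted p under 0.05 numbered 3 with DESeq2 or upper quartile scaling, 2 with limma voom, 11 without TNTProx1 4 to 6 and 1 to 7 without 1 library. Members lower numbered 7 without TNTProx1 1 to 3 and 0 to 1 without 1 library. Directions turned for some members, named here in part. With limma voom Stat2 was at 0.044 and Eif2ak2 at 0.094. Without TNTProx1 4 to 6 Stat2 was at 0.21 and Eif2ak2 at 0.24. Without TNTProx1 1 to 3 Oasl2 was at -0.093, Zbp1 at -0.048, Parp14 at -0.34 and Iigp1 at -0.085. In that fit Gbp5, Gbp4 and Ifi44 were at -0.62, -0.55 and -0.44, against 0.05, 0.12 and 0.28 with all libraries. Leaving out 1 library gave -0.064 to 0.48 for Zbp1, -0.11 to 0.043 for Eif2ak2, -0.10 to 0.25 for Parp14 and -0.0055 to 0.10 for Tap1. Why these values moved was not tested. Smaller values came from limma voom for Isg15 (0.21), Irf7 (0.32), Ifitm3 (0.14), Usp18 (0.12) and Psmb8 (0.045). Depth limits the interferon genes, and the lowest members, such as Mx2 in TNTProx1 4, rest on few counts.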
